A study of Mus musculus with 6 samples.

Results

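*Ngfr* and *Ret* encode receptors for neurotrophic factors, and both were among the genes whose RNA differed between cultured QKI-cKO and QKI-ctrl MuSCs. They are 2 of the 398 genes in the authors' deposited table and were chosen by name because their values differed in opposite directions. The FPKM values of both groups chose them, so these values are a description, with no test. *Ngfr* had 10.2 FPKM in QKI-cKO MuSCs, against 5.53 FPKM in QKI-ctrl MuSCs. *Ret* had 5.39 FPKM in QKI-cKO MuSCs, against 7.34 FPKM in QKI-ctrl MuSCs. FPKM counts fragments per kilobase of transcript, scaled for the size of the library, so levels can be set side by side between genes.

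QKI is an RNA-binding protein that regulates splicing and other steps of RNA metabolism. The series holds 3 libraries of QKI-cKO and 3 of QKI-ctrl MuSCs, labelled KO and WT. They are biological replicates according to the methods, and whether a library came from 1 mouse or from pooled mice is not given in the sources used here. QKI-cKO mice carried floxed exon 2 on both *Qk* alleles and 1 Pax7 CreERT2 allele, which limits recombination to cells that use the *Pax7* promoter. Their QKI-ctrl littermates carried the same floxed alleles and no Cre, so effects of Cre itself and of losing QKI cannot be told apart. According to the methods, mice of both groups received 4-hydroxytamoxifen on 5 d and were 6 to 8 wk old, and MuSCs sorted from abdominal and diaphragm muscle as positive for Itga7 and negative for CD45, CD11b and Sca1, markers of leukocytes and of endothelial and fibro-adipogenic cells, grew for 72 h before polyadenylated RNA was sequenced.

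The table gives 1 pooled value per gene and group. It gives no value per replicate and no read count, so the spread between replicates and the depth are unknown. The columns of the authors' own test were not used, so no difference below was set against replicate error. The columns of the table are headed q1 and q2 rather than by genotype. The column taken as QKI-cKO is the one that is lower for the muscle genes that the study names as down-regulated. Only genes the authors had marked as changed are in the table. The paper gives limits on fold change, false discovery rate and mean level for such genes. Its results and methods state different limits on fold change. If these are read as log2 ratios, *Ngfr* and *Ret* reach neither of them. The log2 ratios nearest 0 among the listed genes were 0.29 and -0.29. A gene missing from the table has no level here, and its absence does not show that it was silent or unchanged. Over the whole gene, *Qk* had 262 FPKM in QKI-cKO MuSCs and 128 FPKM in QKI-ctrl MuSCs. Reads from every other exon enter this value, so it does not check the labels.

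NGFR, also called p75NTR, is a member of the TNF receptor superfamily. It binds all neurotrophins and their precursors, has no kinase domain, and works through adaptor proteins or together with Trk receptors or sortilin. RET is a receptor tyrosine kinase for the GDNF family of ligands. It does not bind these ligands alone but through a GFRA co-receptor that is anchored in the membrane by lipid, and GFRA2 is the preferred co-receptor of neurturin. Skeletal muscle makes factors of both families, which support motor neurons. Both receptors have also been described in muscle cells themselves, NGFR on cultured myoblasts and RET in mouse MuSCs and their progeny.

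*Ngfr* (ENSMUSG00000000120) lies on the minus strand at chr11:95568818-95587735 of GRCm38. Its single annotated transcript, Ngfr-201, has 6 exons, 3446 nt, and a coding sequence of 1284 nt for 427 amino acids. *Ret* (ENSMUSG00000030110) lies on the minus strand at chr6:118151745-118197718. It has a transcript of 20 exons, Ret-201, that codes for 1115 amino acids and one of 19 exons, Ret-202, that codes for 1073. The table holds 1 value for *Ret* as a gene and does not separate these transcripts. In GENCODE no other gene overlaps *Ngfr* or *Ret*, and the locus given in the table has the same ends as the annotated gene for both. The nearest other genes of the table are *Copz2*, 1.26 Mb from *Ngfr*, and *Zfp9*, 0.264 Mb from *Ret*.

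QKI binds RNA at an element made of a half-site, ACUAAC or ACUAAU, and a shorter UAAC or UAAU core within 1 to 20 nt. The paper also calls the half-site sequence alone a QKI element, and reports that an *Itga7* intron RNA holding it bound QKI. The sequences of the half-sites in the mature *Ngfr* and *Ret* transcripts are shown because QKI is the protein removed in these cells. Each line gives 30 bases of a GENCODE transcript in 5′ to 3′ direction, written with T for U and with the half-site in capitals.
Ngfr-201, 3′ UTR, chr11:95570441-95570470, minus strand: gactcagggggtACTAATgaaccagagcca
Ngfr-201, 3′ UTR, chr11:95570234-95570263, minus strand: agagaggcagggACTAACctaggccaccca
Ret-201, 3′ UTR, chr6:118152013-118152042, minus strand: aattaacacttgACTAATaaccattgtctg
Ret-202, 5′ UTR, chr6:118197631-118197660, minus strand: cggcgggaaaggACTAACagaaacagcaag

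Both half-sites of *Ngfr* lie in its 3′ UTR, 345 and 552 nt after the end of the coding sequence. The half-site of Ret-201 lies 1823 nt after the end of its coding sequence, near the end of the transcript, and that of Ret-202 lies in the 5′ UTR, 71 nt from the start. Ret-201 is annotated with a 5′ UTR of 0 nt and a 3′ UTR of 2108 nt, against 585 and 690 nt for Ret-202. The positions of the *Ret* sites therefore depend on which UTRs are annotated. None of the 3 transcripts holds the full element in the order half-site and then core, with 1 to 20 nt between them. In Ret-201 a TAAC overlaps the last base of the half-site, and the search did not count it. In the reversed order, searched after the sequences had been seen, Ret-201 holds 1 element, with the core TAAC before the half-site. The strand of the transcript was searched, not its complement, and introns were not searched. Half-sites are common. With 1 transcript per gene, that of the longest coding sequence, 49.7% of 4777 protein-coding genes with a transcript within 20% of the length of Ngfr-201 hold at least 1 half-site, and 10.5% hold the full element. For the 2951 genes within 20% of the length of Ret-201 these shares are 65.4% and 17.6%, and 18.3% hold the reversed order. Among genes of the table in the same length ranges, 32.2% of 87 genes hold a half-site for Ngfr-201 and 57.4% of 54 genes for Ret-201. At any length, 40.9% of the 330 protein-coding genes of the table hold one, with a median transcript of 2918 nt, and 41.2% of all 21866 protein-coding genes do, with a median of 2540.5 nt. A match of letters is a description and shows no binding.

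**Figure D1:**
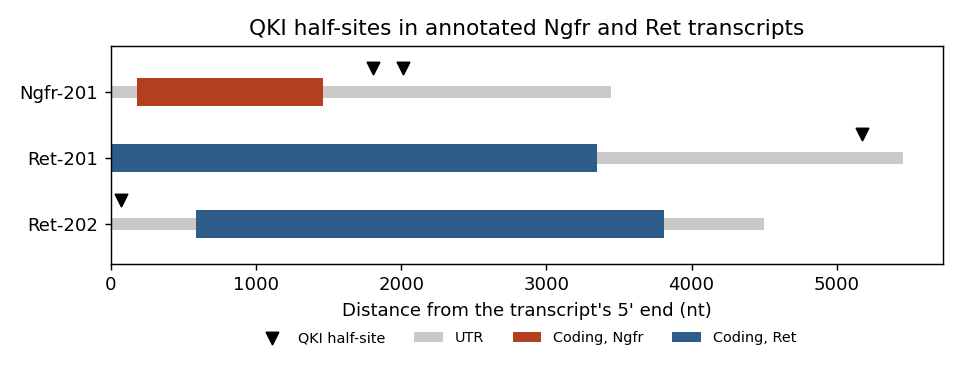
Map of the annotated *Ngfr* and *Ret* transcripts, with the distance from the 5′ end in nt on the x axis, coding sequence as wide bars, UTRs as thin grey bars and QKI half-sites as black triangles. Both sites of Ngfr-201 and the site of Ret-201 lie in the 3′ UTR, and the site of Ret-202 lies in the 5′ UTR, at nt 71. Ret-201 is annotated without a 5′ UTR.

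The level of *Ngfr* in QKI-cKO MuSCs was 1.85-fold that in QKI-ctrl MuSCs, a log2 ratio of FPKM of 0.89. Of the 398 genes, 57.3% were higher in QKI-cKO at any size and 25.6% were higher by at least 1.5-fold. The paper divides the same total slightly differently between up- and down-regulated genes. The background is given only to place *Ngfr* among genes already selected as changed. By the size of its ratio *Ngfr* ranked 48 of the 228 higher genes, above their median fold of 1.46. Its level ranked 160 of 398 in QKI-cKO MuSCs and 216 of 398 in QKI-ctrl MuSCs, near the middle of the table in both, where the median gene had 6.17 FPKM in QKI-cKO and 6.29 FPKM in QKI-ctrl MuSCs.

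For *Ret* the difference was smaller and in the other direction. Its level was 1.36-fold lower in QKI-cKO than in QKI-ctrl MuSCs, a log2 ratio of -0.45. Lower genes made up 42.7% of the table at any size and 26.6% with a difference of at least 1.5-fold, a size that *Ret* did not reach. *Ret* ranked 133 of the 170 lower genes by the size of its ratio. The median lower gene differed by 1.59-fold, so *Ret* was among the smaller differences listed. Its level ranked 213 of 398 in QKI-cKO MuSCs and 184 of 398 in QKI-ctrl MuSCs.

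The order of the receptors therefore differed between the groups. In QKI-cKO MuSCs, *Ngfr* had 1.90 times the FPKM of *Ret*. In QKI-ctrl MuSCs it had 0.754 times the FPKM of *Ret*, so that *Ret* was the more abundant per kilobase there. The ratio of *Ngfr* to *Ret* was 2.52-fold larger in QKI-cKO than in QKI-ctrl MuSCs, and a common scaling of all genes in a group does not change this ratio. The sum of both receptors was 15.6 FPKM in QKI-cKO and 12.9 FPKM in QKI-ctrl MuSCs. With 1 pooled value per group, neighbours in these orders cannot be said to differ beyond their spread.

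**Figure D2:**
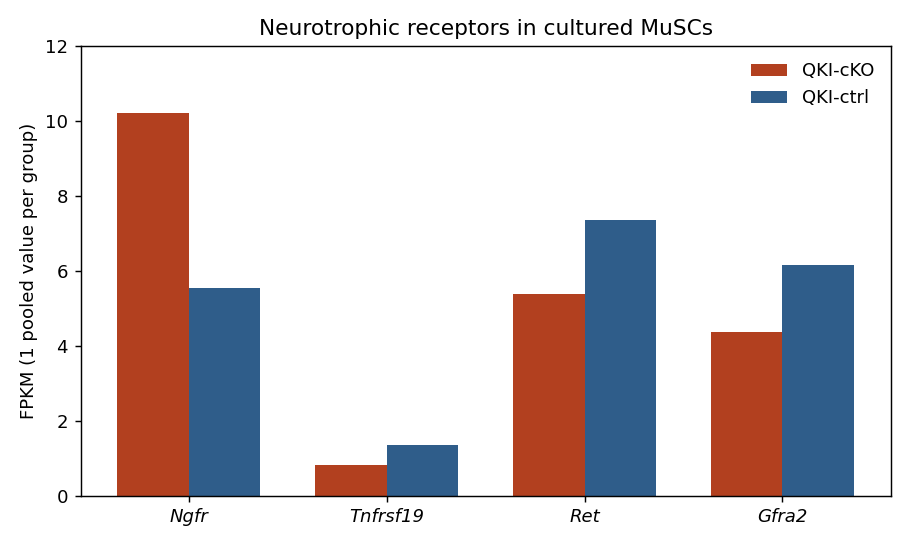
Bars give the FPKM of *Ngfr*, *Tnfrsf19*, *Ret* and *Gfra2*, with 1 pooled value per group and no error bars because no replicate values are in the table. *Ngfr* is the highest bar in QKI-cKO, at 10.2 FPKM, and *Ret* the highest in QKI-ctrl, at 7.34 FPKM, while *Gfra2* and *Tnfrsf19* are lower in QKI-cKO, as *Ret* is.

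The co-receptors were examined next. Of 8 genes for RET and its co-receptors, the table holds *Ret* and *Gfra2*, both lower in QKI-cKO, where 42.7% of all 398 genes were lower. *Ret* was chosen by its direction, so only *Gfra2* adds to this count, and nothing about the receptor complex is read from that gene. *Gfra2* had 4.37 FPKM in QKI-cKO MuSCs and 6.14 FPKM in QKI-ctrl MuSCs, which is 1.41-fold lower, a log2 ratio of -0.49. *Gfra2* had 0.810 times the FPKM of *Ret* in QKI-cKO and 0.836 times in QKI-ctrl MuSCs. Any lower gene with a log2 ratio close to that of *Ret* keeps such a proportion to it. *Gfra1*, *Gfra3* and *Gfra4*, which encode the co-receptors preferred by GDNF, artemin and persephin, are not in the table.

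The list of 12 neurotrophin receptors and co-receptors also takes in genes of the Nogo receptor complex. Of these 12 the table holds *Ngfr* and *Tnfrsf19*, which differed in opposite directions. *Tnfrsf19* is listed for that complex and not as a receptor for neurotrophins. *Tnfrsf19* encodes TROY, a TNF receptor family member that can take the place of p75NTR in the Nogo receptor complex of neurons. It had 0.822 FPKM in QKI-cKO MuSCs, against 1.34 FPKM in QKI-ctrl MuSCs, a log2 ratio of -0.71. The locus printed for *Tnfrsf19* is wider than the annotated gene, and a gene on the other strand, Gm41168, overlaps it. The libraries came from a stranded kit, but whether strand was used in the counting is not given in the sources used here. The sortilin gene *Sort1* is not in the table, nor are any of the 4 neurotrophins, the 5 ligands of the GDNF family list, or the 21 genes for partners and processing of p75NTR.

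**Figure D3:**
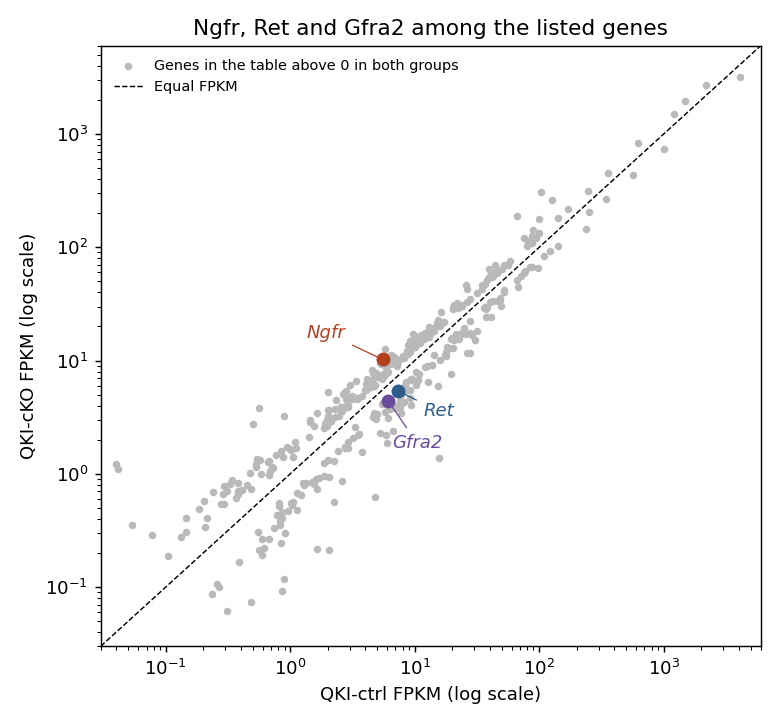
Each point is a gene of the table above 0 FPKM in both groups, with QKI-ctrl FPKM on the x axis and QKI-cKO FPKM on the y axis, both on log scales, and a dashed line of equal FPKM. *Ngfr* lies above the line at 5.53 and 10.2 FPKM, *Ret* and *Gfra2* lie below it close to each other, and the band along the line is empty because only genes marked as changed are listed.

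Signalling genes downstream of RET and of Trk receptors were counted in the table as well. Of 30 adaptors of RET and Trk receptors, 3 are in the table, 2 higher and 1 lower in QKI-cKO. Over the whole table, 57.3% of genes were higher and 42.7% lower. *Dok1*, a docking protein that binds activated receptor tyrosine kinases and dampens Ras signalling, had 17.4 FPKM in QKI-cKO and 12.2 FPKM in QKI-ctrl MuSCs. *Dok3*, a related adaptor best known from immune cells, had 1.33 FPKM in QKI-cKO and 0.573 FPKM in QKI-ctrl MuSCs. *Shc2*, an adaptor of the Shc family that links receptors to Ras, was lower, with 0.683 FPKM in QKI-cKO and 1.12 FPKM in QKI-ctrl MuSCs. The adaptors thus differed in both directions, and only *Dok1* was above 2 FPKM. The gene Gm47163, on the other strand, overlaps *Shc2*.

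The MAP kinase cascade and its early targets gave 3 of 32 genes, again 2 higher and 1 lower, beside 57.3% and 42.7% of the whole table. *Ksr1*, a scaffold that holds RAF, MEK and ERK together, had 11.2 FPKM in QKI-cKO and 6.43 FPKM in QKI-ctrl MuSCs, a log2 ratio of 0.81, close to that of *Ngfr*. *Egr1*, an immediate early transcription factor induced by ERK signalling in many cells, had 24.0 FPKM in QKI-cKO and 41.2 FPKM in QKI-ctrl MuSCs. *Jund*, a subunit of the transcription factor AP-1, had 17.2 FPKM in QKI-cKO and 12.5 FPKM in QKI-ctrl MuSCs. These 2 targets differed in opposite directions. A gene on the other strand overlaps *Ksr1* and another overlaps *Jund*.

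Over the 7 lists of ligands, receptors, partners, adaptors and targets, 10 of 112 genes are in the table, 5 higher and 5 lower in QKI-cKO. Without *Ngfr* and *Ret* these are 4 higher and 4 lower, in a table with 57.3% of genes higher and 42.7% lower. Their median log2 ratio of -0.02 is only the midpoint of an even split, and no listed gene has a ratio so near 0. It is therefore not read against the median over all genes of the table, 0.36. The table does not say how many of the 112 genes were expressed or tested, so the share of them that changed is not known.

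**Figure D4:**
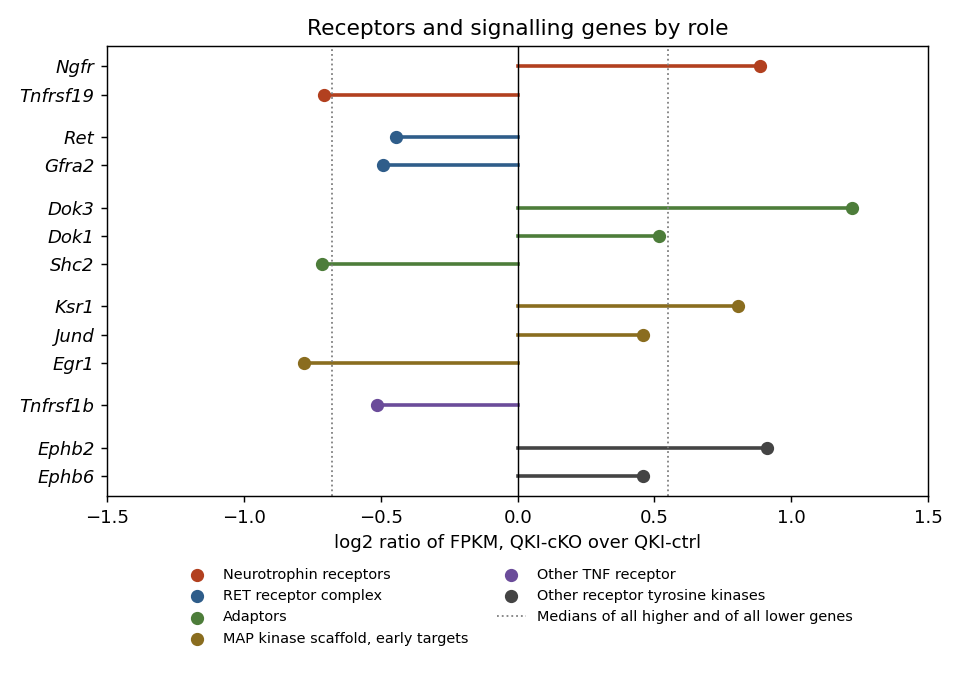
Log2 ratio of FPKM, QKI-cKO over QKI-ctrl, on the x axis for each listed gene that is in the table, grouped by role, with dotted lines at the medians of all higher genes (0.55) and all lower genes (-0.68). *Ngfr* (0.89) lies beyond the upper median, and *Ret* (-0.45) and *Gfra2* (-0.49) lie between 0 and the lower median. *Tnfrsf19* is grouped with *Ngfr* by its list and not as a receptor for neurotrophins.

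Within their own receptor families, *Ngfr* and *Ret* each had few relatives in the table. Of 28 TNF receptor superfamily genes, 3 are listed, *Ngfr* higher and the others lower in QKI-cKO, in a table with 57.3% of genes higher and 42.7% lower. *Tnfrsf1b*, a receptor for TNF, had 7.55 FPKM in QKI-cKO and 10.8 FPKM in QKI-ctrl MuSCs. Of 58 receptor tyrosine kinase genes, 3 are listed, *Ret* lower and the others higher. With 3 genes in each family, nothing particular to *Ngfr* or *Ret* is read from these counts. *Ephb2*, a receptor for ephrins, had 5.02 FPKM in QKI-cKO and 2.67 FPKM in QKI-ctrl MuSCs. *Ephb6*, a family member without kinase activity, had 2.54 FPKM in QKI-cKO and 1.85 FPKM in QKI-ctrl MuSCs. *Tnfrsf1b* and *Ephb2* lie on chromosome 4, 5.38 and 2.90 Mb from *Pax7*, the gene that carries the Cre allele in QKI-cKO mice, and the part of this position in their values was not tested. *Ngfr* and *Ret* lie on other chromosomes.

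Markers of cell types were examined beside the receptors, since *Ngfr* is also a marker of Schwann cells and neural crest. Of 16 such markers, *Ngfr* itself is the only one in the table, and of 15 neuron markers none is. The defining marker *Sox10* therefore has no level here, and the part of Schwann cells in the *Ngfr* value was not tested. No gene of the fibroblast, endothelial or smooth muscle lists is in the table. Of 10 leukocyte markers only *Laptm5* is, a lysosomal protein of blood cells on chromosome 4, 8.80 Mb from *Pax7*, with 19.9 FPKM in QKI-cKO and 12.9 FPKM in QKI-ctrl MuSCs.

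Muscle markers in the table were lower in QKI-cKO, as *Ret* was. Of 16 differentiation markers, 8 are in the table, and all 8 were lower in QKI-cKO, where 42.7% of the table was lower, with a summed level of 17.9 FPKM in QKI-cKO and 46.7 FPKM in QKI-ctrl MuSCs. *Myl1*, *Myl4*, *Myh3* and *Mybph* are among the genes by which the columns were assigned to the groups, so the direction of these 4 was fixed by that assignment and the count is no result. Of 15 markers of MuSCs and myoblasts, *Itga7* and *Vcam1* are in the table. *Itga7*, the integrin used for the sort, had 145 FPKM in QKI-cKO and 237 FPKM in QKI-ctrl MuSCs, and *Vcam1*, an adhesion protein of MuSCs, had 44.9 FPKM in QKI-cKO and 67.1 FPKM in QKI-ctrl MuSCs. Other annotated genes overlap both of them. *Pax7*, *Myf5* and *Myod1* are not in the table, so the labelled cell type could be checked only in part. In bulk RNA, fewer cells that express *Ret* and less *Ret* RNA per cell cannot be told apart, and the part of cell state in both receptor values was not tested.

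The set searched was the 339 named genes above 0 FPKM in both groups, both receptors included and predicted genes left out. The genes most like each receptor were sought among its other members by the distance in log2 FPKM over the 2 pooled values. For *Ngfr* they were *Sema6b*, a transmembrane semaphorin, at a distance of 0.14, *AI480526* at 0.18 and *Cldn4*, a tight junction protein, at 0.24. *Sema6b* had 9.44 FPKM in QKI-cKO and 5.26 FPKM in QKI-ctrl MuSCs. For *Ret* they were *Nup210*, a nuclear pore protein, at 0.13, *Mnd1*, a meiotic recombination factor, at 0.22 and *Tnni1*, slow skeletal troponin I, at 0.30. *Nup210* had 4.99 FPKM in QKI-cKO and 7.71 FPKM in QKI-ctrl MuSCs. With only 2 values per gene, such likeness means a similar level and ratio and no more.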

How the data were processed

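Libraries of QKI-cKO and QKI-ctrl MuSCs, 3 each, fell into groups by their sample titles. For the deposited FPKM values, the authors used Trimmomatic for trimming, STAR for alignment (mm10/GRCm38) and the Cufflinks suite, whose scaling rests on geometric means of the fragment counts in all libraries. Replicates were combined, which leaves a single FPKM for each gene in each group. The deposited columns of the authors' own comparison (fold change, test statistic, p-value, q-value) were not used. Depth per sample is unknown, and no test, SD or interval could be computed from the pooled values. Ratios were computed without a pseudocount. Loci were made 1-based. Of 398 IDs, 397 matched GENCODE vM21 without their version. Half-sites were searched in GENCODE vM21 transcripts.

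*Ngfr*, *Ret* and the 18 gene lists were chosen with earlier results of these data known. The genes named are *Ngfr*, *Ret*, *Qk*, list genes in the table, and the 3 genes nearest to each receptor in log2 FPKM. Alternatives were pseudocounts of 0.1 and 1 FPKM, scaling by summed FPKM, limits of 1 FPKM and of 1.5-fold, no predicted genes, and fewer lists. Ratio code and motif code for half-sites and full elements was checked on simulated data. The search for the reversed order was not checked in this way. Python 3.11.15, pandas 2.3.3, numpy 2.4.6 and matplotlib 3.10.9 were used.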

Additional observations from a re-analysis of the deposited data

How the results depend on the processing

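The log2 ratio of *Ngfr*, 0.89 as given, was 0.87 with a pseudocount of 0.1 FPKM, 0.78 with 1 FPKM and 0.81 after scaling by the summed FPKM of the table. That of *Ret*, -0.45 as given, was -0.44, -0.38 and -0.52 under the same alternatives. The kept direction of both adds no support. An equal pseudocount in both groups cannot change the sign of a ratio. The scaling shifted each log2 ratio by 0.08, less than the smallest listed ratio, so it could change no direction and no count of directions. With at least a 1.5-fold difference, 102 higher and 106 lower genes were left of 228 and 170, and 6 of the 10 pathway genes, *Ret*, *Gfra2*, *Dok1* and *Jund* being below that limit. The other counts stayed within 1.5 times under a minimum of 1 FPKM, without predicted genes, after scaling, or without the MAP kinase list. No paired analysis was possible because the table has 1 pooled value per group, and for the same reason no replicate could be left out in turn. Precision is limited by the unknown depth and by the absence of replicate values.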

Other observations

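Of 77 genes for axon guidance ligands, receptors and mediators, 6 are in the table, 5 higher and 1 lower in QKI-cKO, with a median log2 ratio of 0.49. Of all 398 listed genes, 57.3% were higher and the median was 0.36, and nothing particular to the list is read from its 6 genes. *Dpysl3*, which encodes a mediator of semaphorin signalling that binds the cytoskeleton, was the most abundant of them, with 126 FPKM in QKI-cKO and 88.2 FPKM in QKI-ctrl MuSCs. Its relative *Dpysl2* had 6.07 FPKM in QKI-cKO and 4.78 FPKM in QKI-ctrl MuSCs. *Sema7a*, a semaphorin anchored in the membrane by lipid, was the lower gene, with 51.5 FPKM in QKI-cKO and 66.0 FPKM in QKI-ctrl MuSCs. The others are *Sema6b*, *Ephb2* and *Ephb6*, with *Sema6b* the gene most like *Ngfr*. The list was written with the genes of the table known.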
